A study of Mus musculus with 18 samples.

Results

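The Hox gene clusters are 4 runs of homeobox genes, and here they comprised the 39 protein-coding genes of the GENCODE M21 annotation whose symbols are Hoxa, Hoxb, Hoxc or Hoxd followed by a number, of 21938 protein-coding genes in all. The genes were chosen by symbol and not by any measured value. There were 11 in Hoxa (chromosome 6), 10 in Hoxb (chromosome 11), 9 in Hoxc (chromosome 15) and 9 in Hoxd (chromosome 2). The measurement was accessible chromatin by ATAC-seq, in which a transposase inserts sequencing adapters into open DNA, in 18 libraries of whole (bulk) retina from wild-type mice. A peak was assigned to a Hox gene when it overlapped the gene or the 5 kb on either side of it. These windows, merged where they overlapped, covered 452 kb of the mm10 genome (GRCm38) and held 222 of the 911837 listed peaks.

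The libraries formed 6 groups of 3. Each group was of mice aged 3 months (3mo) or 18 months (18mo). At each age, the first group was retina of eyes whose intraocular pressure (IOP) had been raised to 30 mmHg for 1 h. The second was retina of the opposite eyes of such mice (contralateral). The third was retina whose titles name no treatment, and it is called untreated here. IOP and contralateral retinas were labelled as collected on day 2, while the text of the study gives another day. The labels share a treatment text that also describes the kinase inhibitor dasatinib and its vehicle, and none of them assigns a library to either. This is therefore unknown for every library. Nothing in the labels says that libraries of a group came from separate animals, so the p-values below measure the spread between these libraries. Contralateral retinas come from mice with a treated eye and are not naive controls.

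Hox proteins are transcription factors that give cells along the body axis their positional identity. Genes at one end of a cluster (low paralog numbers) act in the hindbrain and those at the other end (high numbers) in the posterior trunk and limbs, and genes with the same number in different clusters are paralogs. They bind DNA together with the TALE cofactors Pbx, Meis and Pknox. The retina derives from the forebrain, anterior to the domain in which Hox genes act, and in such cells the clusters are typical targets of Polycomb repression. Their promoters are rich in CpG dinucleotides, and binding sites of the insulator protein CTCF divide the clusters into domains.

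Lists held 36011 to 66160 peaks. The depth in reads is not given by peak lists, and a region that was not listed may have been open below the threshold of the peak caller. The tissue label was checked on promoters, which ran from 1 kb before each transcription start site (TSS) to 100 bp after it. Of 10 retinal marker genes 8 were called in all 18 libraries. Of 6 microglial and leukocyte marker promoters, 0 were called in any library. In their windows of gene plus 5 kb, a peak was listed in 18 libraries for Cx3cr1 and Spi1 and in 17 for Aif1. It was listed in 7 for Csf1r, 4 for P2ry12 and 0 for Ptprc. Endothelial windows had a peak in all 18 libraries for 2 genes and in no library for 1, so promoters alone do not show that such cells were absent. Of 6 endothelial marker promoters only that of Kdr was called, in all 18 libraries. Of 5 pigment epithelium marker promoters, those of Rpe65, Tyr and Best1 were at 0 and those of Rgr and Mitf in all 18. Among 5 pericyte and fibroblast markers 0 to 2 were called per library, and among 4 muscle markers 0 to 1. The libraries also differed in the shortest peak listed, which was 79 to 89 bp in untreated and 114 to 157 bp in contralateral and IOP libraries, without overlap. Among contralateral and IOP libraries it was 114 to 122 bp in 5 and 148 to 157 bp in 7, and no label names a batch.

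Most Hox promoters had no listed peak. Of the 39 genes, 32 had no promoter peak in any library (82.1%), against 35.8% of all protein-coding genes. In whole retina, a site open in few cells and a site weakly open in many cannot be told apart. Only the promoter of Hoxa4 was called in all 18 libraries, or 2.56% of Hox genes, against a background of 51.8%. Hoxa4 belongs to paralog group 4, which acts at the border of hindbrain and spinal cord. The promoter of Hoxc10, a gene of lumbar identity, was called in 16 libraries and was missing in 3mo contralateral 1 and 3. The remaining 5 promoters with any call were those of Hoxc5 (18mo contralateral 1 and 3), Hoxc13 (18mo contralateral 3 and 18mo untreated 5), Hoxa11, Hoxc9 and Hoxd9, the last 3 in 1 library each. The counts rested on the TSS of the basic gene set. With every annotated TSS, 10 of the 39 genes had a promoter call (background 66.1%), and Hoxa7 joined Hoxa4 in all 18 libraries (background 53.4%). Under that setting Hoxc5 had a call in 16 libraries, through an upstream start whose promoter takes in the Hoxc10 region.

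The Hox promoters were then compared with others of similar CpG content. A promoter was taken as CpG-rich when the 1 kb on either side of a TSS had a GC content of at least 50% and a ratio of observed to expected CpG of at least 0.6. By this measure 23 Hox genes had a CpG-rich promoter. Among all 7177 protein-coding genes with such promoters 86.5% were called in all 18 libraries and 2.97% in none. Among the 23 Hox genes 1 was called in all 18 (4.35%) and 19 in none (82.6%). In the RefSeq table of promoter sequences, 24 sequences of 22 Hox genes had a median of 14.5 CpG per sequence, against 7 over 32851 promoters. Hoxd1, a gene of paralog group 1, had 0 libraries with a peak, in its promoter or anywhere in its window. The 250 bases before its RefSeq start (GRCm38.p6, plus strand, chr2:74762730-74762979) hold 24 CpG, in capitals, and are shown as a CpG-rich Hox promoter without a call.
Hoxd1 promoter: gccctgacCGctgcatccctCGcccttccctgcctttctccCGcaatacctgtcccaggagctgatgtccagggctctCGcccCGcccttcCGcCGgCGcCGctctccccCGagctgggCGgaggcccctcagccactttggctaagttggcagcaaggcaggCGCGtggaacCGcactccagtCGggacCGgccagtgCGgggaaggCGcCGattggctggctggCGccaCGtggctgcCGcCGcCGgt

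**Figure D1:**
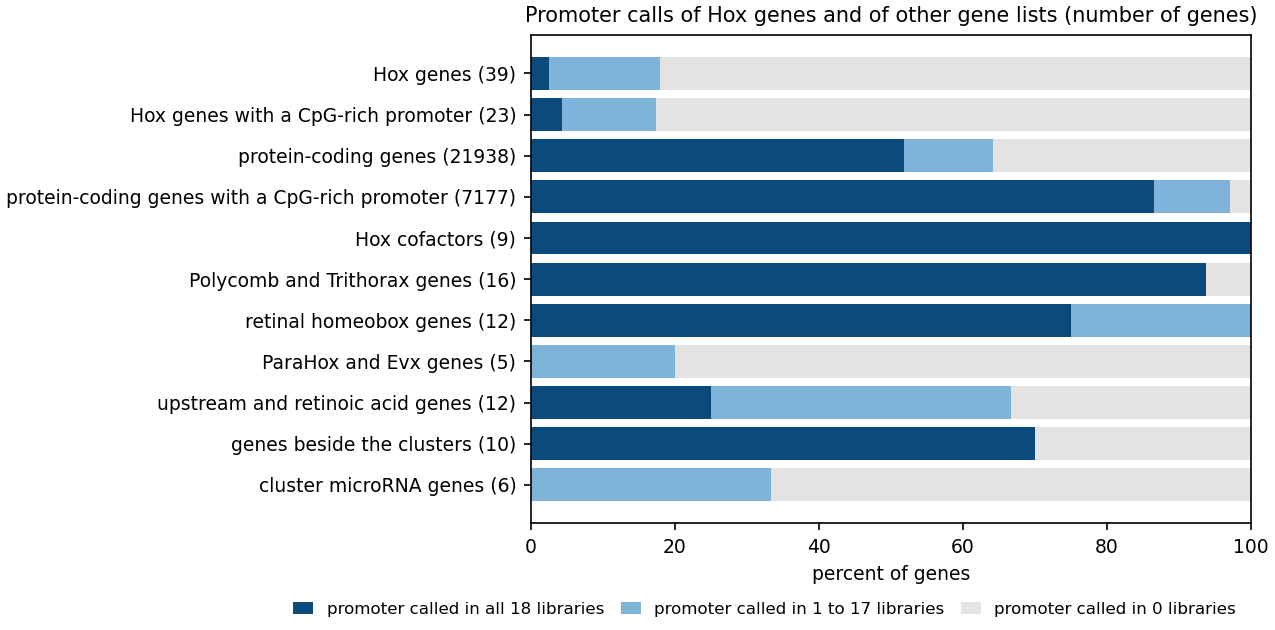
Percent of genes (x axis) whose promoter was called in all 18 libraries (dark blue), in 1 to 17 (light blue) or in 0 (grey), for the Hox genes, all protein-coding genes and other gene lists (y axis, number of genes in brackets). The Hox genes are mostly grey (82.1%), whether CpG-rich or not, while 86.5% of all CpG-rich genes and all 9 Hox cofactors are dark blue.

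Over the wider windows of gene plus 5 kb, 26 of the 39 genes had a peak in at least 1 library (66.7%, background 78.3%). In 8 genes a peak was listed in all 18 libraries (20.5%, background 64.2%), and 13 had none in any library (33.3%, background 21.7%). The 8 were Hoxa3, Hoxa4, Hoxa6, Hoxa7, Hoxa9, Hoxc5, Hoxc8 and Hoxc9. Those without a peak included Hoxa2, Hoxb1 to Hoxb5, Hoxb13, Hoxc11, Hoxc12, Hoxd1, Hoxd8 and Hoxd11. The annotated spans of Hoxa3 and Hoxc5 are long and take in the regions of their neighbours, so the windows are not independent of each other. Between these extremes, Hoxa10, Hoxa11, Hoxa13 and Hoxc10 had a peak in 16 libraries, Hoxb8, Hoxb9, Hoxc4 and Hoxc6 in 13, and Hoxd12 and Hoxd13 in 12. Hoxa5, Hoxd3 and Hoxd4 had one in 6 libraries, Hoxb6 and Hoxb7 in 3, and Hoxc13, Hoxd9 and Hoxd10 in 2.

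By paralog number, group 2, of hindbrain genes, held 2 genes (Hoxa2 and Hoxb2), and neither had a peak in any library. Groups 3 to 9 each held at least 1 gene with a peak in all 18 libraries. Groups 10 to 13, the posterior genes, held no gene with a peak in all 18, and 4 of their 12 genes were at 0. All 8 genes with a peak in every library had numbers from 3 to 9.

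**Figure D2:**
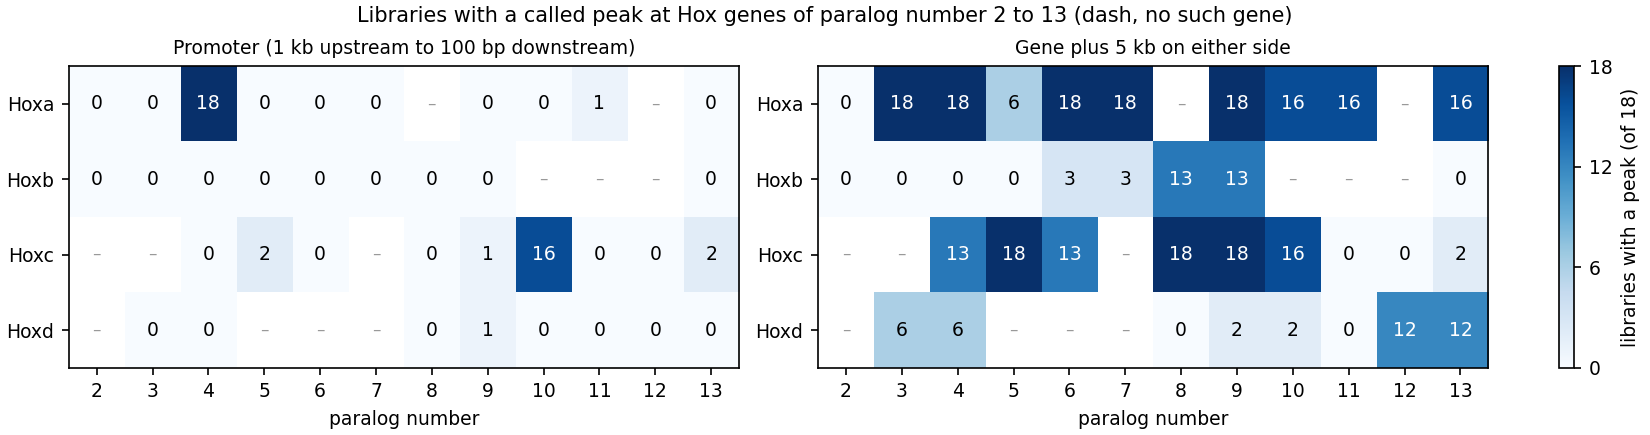
Number of libraries of 18 with a peak in the promoter (left) and in the gene plus 5 kb (right) of Hox genes, by cluster (y axis) and paralog number from 2 to 13 (x axis), with a dash where a cluster has no such gene. On the right, paralog group 2 is at 0 wherever present, and the 8 genes at 18 are in Hoxa and Hoxc.

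The 4 clusters differed in the density of peaks. Hoxa held 6.12 peaks per 100 kb of window, Hoxc 2.69, Hoxd 1.25 and Hoxb 0.766 (means over 18 libraries), against 3.28 over the windows of all protein-coding genes. As a ratio to that background within each library, Hoxa was at 1.86 ± 0.462, Hoxc at 0.812 ± 0.370, Hoxd at 0.354 ± 0.303 and Hoxb at 0.235 ± 0.181 (SD, n = 18). Hoxa was higher than each other cluster in 18 of 18 libraries, by 5.36 peaks per 100 kb over Hoxb, 4.87 over Hoxd and 3.44 over Hoxc. Hoxc was above Hoxd in 17 of 18 libraries, by 1.44 peaks per 100 kb, and above Hoxb in 17 of 18. For these 5 pairs p was 2e-05, the smallest that 100000 permutations within libraries can give (adjusted 2.4e-05 over the 6 pairs). Hoxb and Hoxd stood closest, at a difference of -0.483 (Hoxb minus Hoxd, p = 0.0411, permutation test), and that call was lost in 4 of 6 alternative settings.

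The longest stretch without a peak in any library reached 78.4 kb in Hoxb and held Hoxb5 to Hoxb1. In Hoxd it was 54.1 kb with Hoxd1, and in Hoxc 45.5 kb with Hoxc13, Hoxc12 and Hoxc11. Only genes wholly inside a stretch are named. The Hoxd stretch also holds annotated starts of Hoxd3 and Hoxd4, and the Hoxb stretch a start of Hoxb6. The spans of these genes begin outside. In Hoxb and Hoxd the stretch therefore lay at the end with the lowest paralog numbers, and in Hoxc at the opposite end. The lengths were counted from the first to the last window of a cluster.

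**Figure D3:**
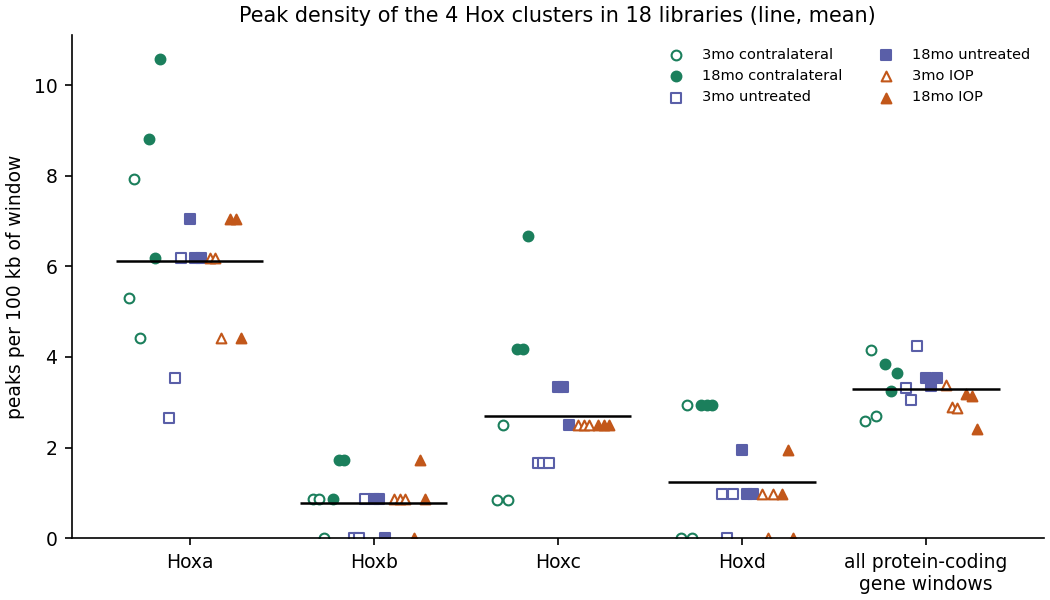
Peaks per 100 kb of window (y axis) in each of the 18 libraries, by cluster and over all protein-coding gene windows (x axis). Symbols mark the group and lines the mean over libraries. Hoxa is the highest cluster in every library, with a mean of 6.12, and Hoxb has the lowest mean, 0.766.

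Merging the peaks of all libraries gave 34 regions in the Hox windows, of which 22 had a peak in at least 2 libraries (consensus regions, 73567 in the genome) and 12 in 1 library. Hoxa held 11 of the 22, Hoxc 6, Hoxd 3 and Hoxb 2. Of the 22, 4 were called in all 18 libraries (18.2%, background 33.6%) and 10 in at least 9 (45.5%, background 59.5%). By annotation at the summit (the point of highest signal), 8 lay in promoters (36.4%, against 19.4% of all consensus regions), 5 in exons (22.7% against 6.50%), 5 inside gene spans but outside exons of the basic set (22.7% against 47.5%) and 4 between genes (18.2% against 26.6%). Of the 8 promoters, 4 belonged to noncoding genes within the clusters (Mir615, Hoxd3os1, Gm15050 and Gm27280). The regions were GC-rich, with a median GC content of 61.8% in the 200 bases around the summit, against 52.5% over all regions.

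The 4 regions called in every library are the most stable open sites of the clusters, and 3 of them are in Hoxa. The first lies in the promoter of Hoxa4 (chr6:52191818-52192366), 209 bp upstream of its TSS. The second (chr6:52211289-52212106) lies between Hoxa6 and Hoxa7, in introns of the long Hoxa3 transcript and of the antisense RNA Hoxaas3. The third (chr6:52221346-52222017) lies within the annotated span of Hoxa7, upstream of every Hoxa7 transcript of the basic gene set, and holds the start of a longer Hoxa7 transcript, at position 52221854. The fourth (chr15:102987363-102987862) lies between Hoxc9 and Hoxc8, in an intron of a long Hoxc5 transcript that is outside the basic set. Around the summits of 3 of them, and of the Hoxc5 exon region described below, the 200 bases of the reference genome (mm10, plus strand) read as follows, with CpG in capitals, from CpG-dense to CpG-poor among the stable sites. The windows are chr6:52191862-52192061, chr6:52211636-52211835, chr15:102987522-102987721 and chr15:103014228-103014427.
Hoxa4 promoter: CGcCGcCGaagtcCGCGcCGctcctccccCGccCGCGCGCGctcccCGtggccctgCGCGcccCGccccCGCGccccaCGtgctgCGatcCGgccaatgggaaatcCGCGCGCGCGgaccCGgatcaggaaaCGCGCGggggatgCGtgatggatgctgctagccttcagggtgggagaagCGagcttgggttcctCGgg
Hoxa6 to Hoxa7: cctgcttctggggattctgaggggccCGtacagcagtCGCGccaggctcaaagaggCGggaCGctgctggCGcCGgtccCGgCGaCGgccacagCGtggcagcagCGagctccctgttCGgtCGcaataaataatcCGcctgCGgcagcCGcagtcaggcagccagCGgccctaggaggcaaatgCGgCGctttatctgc
Hoxc9 to Hoxc8: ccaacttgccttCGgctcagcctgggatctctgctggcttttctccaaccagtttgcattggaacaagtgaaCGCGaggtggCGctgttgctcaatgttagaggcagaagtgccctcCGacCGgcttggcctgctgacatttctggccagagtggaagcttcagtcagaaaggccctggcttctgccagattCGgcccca
Hoxc5 exon: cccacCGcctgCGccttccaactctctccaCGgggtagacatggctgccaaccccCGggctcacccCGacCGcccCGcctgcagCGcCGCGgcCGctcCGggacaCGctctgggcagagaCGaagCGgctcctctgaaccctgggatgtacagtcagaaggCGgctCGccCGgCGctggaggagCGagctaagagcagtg

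These windows hold 32, 20, 7 and 20 CpG in that order. Over the 22 Hox regions the count ran from 5 to 32 with a median of 15, against a median of 3 over all consensus regions, 8 over those called in all 18 libraries and 16 over those in promoters. The median over Hox regions was thus near that of promoter regions. It covers all 22 regions, and the 14 outside promoters of the basic set were not counted apart. Some of these 14 lie at or near a TSS, such as the Hoxa7 region.

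The strength of a peak was taken as its percentile by -log10 q-value within its own list. The median percentile was 71.4 for the Hoxa6 to Hoxa7 region, which ranged from 57.6 (3mo contralateral 1) to 82.3 (18mo contralateral 1). It was 67.6 for the Hoxc9 to Hoxc8 region (44.4 to 81.7), 66.5 for the Hoxa4 promoter (26.1 to 81.5) and 60.1 for the Hoxa7 region (37.7 to 73.5). Their median of 67.1 lay below the 74.5 of all 24751 regions called in all 18 libraries, and their median width of 610.5 bp below 849 bp. The 4 sites ranked above the middle of their lists but below the typical region that every library called. The Hox regions called in 9 to 17 libraries had a median percentile of 37.2 (33.0 over all such regions) and those in 2 to 8 libraries of 11.2 (17.4).

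Summit positions were also set side by side between libraries. All summits of a region lie within its merged peaks, so a narrow region limits their spread. The spread in other regions of the genome was not measured. In the 10 regions called in at least 9 libraries, the SD of the summit ran from 17.6 bp (Hoxd13 to Hoxd12) to 86.6 bp (Hoxa11 to Hoxa13). The Hoxc9 to Hoxc8 summits fell within 87 bp over 18 libraries and the Hoxa6 to Hoxa7 summits within 80 bp.

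The 6 regions called in 9 to 17 libraries were spread over all 4 clusters. The Hoxc10 promoter (chr15:102966480-102966767), an exon of Hoxa10 (chr6:52240307-52240725) and the space between Hoxa11 and Hoxa13 (chr6:52252835-52253910) were called in 16 libraries each. The Hoxa10 exon was missing in 3mo untreated 4 and 18mo IOP 3, and the Hoxa11 to Hoxa13 region in 3mo untreated 4 and 5. The space between Hoxb9 and Hoxb8 (chr11:96278778-96279064), the main open site of Hoxb, was called in 13 libraries. It was missing in 3mo contralateral 3, 3mo untreated 4 and 5, 18mo IOP 1 and 18mo untreated 6. The space between Hoxd13 and Hoxd12 (chr2:74673057-74673270), the main site of Hoxd, was called in 12 libraries, among them 3 of 3 18mo contralateral and 3 of 3 18mo untreated. In the 3mo groups it was called in 1 contralateral, 1 IOP and 2 untreated libraries. The last is the first coding exon of Hoxc5 (chr15:103014121-103014548), which is also within 1 kb upstream of the microRNA gene Mir615. It was called in 13 libraries and is described with the age comparison.

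**Figure D4:**
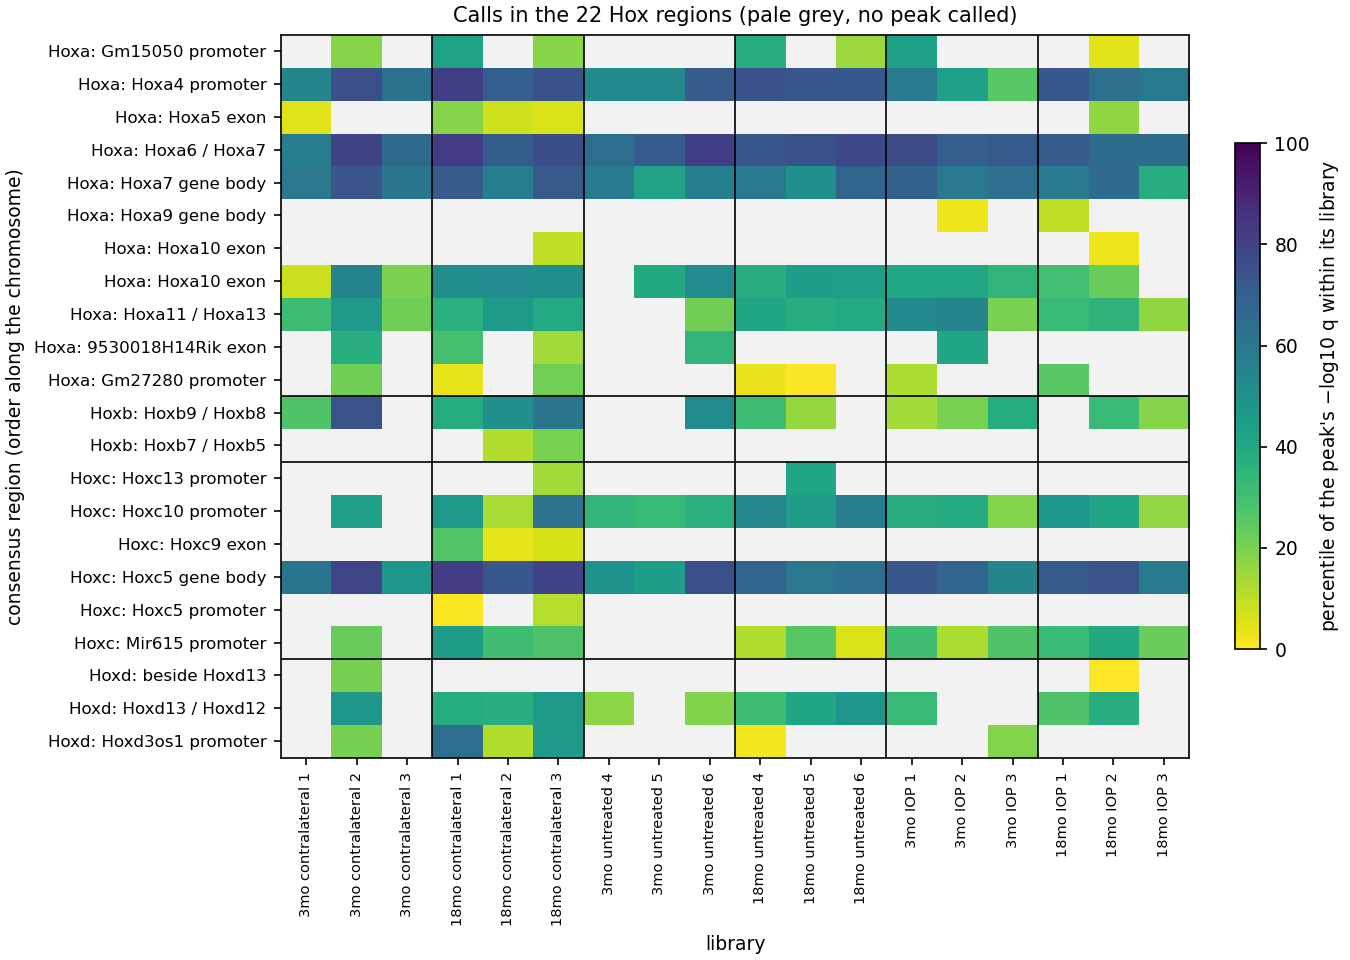
Calls of the 22 Hox consensus regions (rows, by cluster) in the 18 libraries (columns, by group), coloured by the percentile of the peak within its list, with pale grey for no call. The Hoxc9 to Hoxc8 region is named Hoxc5 gene body and the Hoxc5 exon is named Mir615 promoter. The 4 rows filled throughout are called in every library, and the Hoxc9 exon row is filled only in the 3 18mo contralateral libraries.

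The other 12 regions were called in 2 to 8 libraries. Gm15050 and Gm27280, small noncoding genes of the Hoxa cluster, had promoter regions called in 7 libraries each. The Gm27280 region is also a coding exon of Hoxa13. Regions in an exon of Hoxa5 and in 9530018H14Rik were called in 5 libraries each, and Hoxd3os1 in 6. The remaining 7, called in 2 or 3 libraries, lay in Hoxa9, Hoxa10, Hoxb6, Hoxc13, Hoxc9, Hoxc5 and next to Hoxd13.

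The first comparison asked how control retinas of 18mo and 3mo mice differ. Peaks in the Hox windows numbered 8, 16 and 6 in 3mo contralateral and 6, 6 and 11 in 3mo untreated retinas. They numbered 19, 17 and 25 in 18mo contralateral and 15, 13 and 11 in 18mo untreated retinas. All 18mo libraries held at least 11, a number reached by 2 of the 6 3mo libraries, so the ranges overlapped. The means were 16.7 ± 4.97 at 18mo and 8.83 ± 4.02 at 3mo (SD, n = 6 each), a difference of 7.83 peaks (p = 0.0173, two-sided exact permutation test, adjusted p = 0.0866 over 5 comparisons of this kind). The total number of peaks differed by 2851 (54541 ± 3865 against 51690 ± 11851, p = 0.580, exact permutation test).

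Both measures that allow for list length gave the same direction. As a share of the peaks of a library, Hox peaks made up 0.0304 ± 0.00786% at 18mo and 0.0167 ± 0.00475% at 3mo (difference 0.0136 percentage points, adjusted p = 0.0216, exact permutation test, n = 6 each). When each list was reduced to its 36011 strongest peaks, 3mo contralateral libraries held 6, 8 and 6 Hox peaks and 3mo untreated ones 5, 6 and 6. The 18mo contralateral libraries held 9, 9 and 10 and the 18mo untreated ones 8, 9 and 8. The means were 8.83 ± 0.753 and 6.17 ± 0.983 and the ranges met at 8 (difference 2.67, n = 6 each, exact permutation test with adjusted p = 0.0325). Relative to the peak density over all protein-coding windows, the Hox windows were at 1.04 ± 0.286 at 18mo and 0.574 ± 0.171 at 3mo (SD, n = 6 each).

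Within contralateral retinas the means were 20.3 ± 4.16 and 10 ± 5.29 peaks (p = 0.1, the smallest that 3 against 3 allows in an exact permutation test), and within untreated retinas 13 ± 2 and 7.67 ± 2.89 (p = 0.2, exact permutation test). The age differences in the contralateral and untreated retinas, 10.3 and 5.33 peaks, differed from each other by 5 (permutation p = 0.485 over 400 arrangements). A permutation restricted to labels of one kind of control at a time gave p = 0.01 (adjusted 0.05), and within classes of shortest listed peak the difference was 6.59 (permutation p = 0.0111, adjusted 0.0556). In IOP retinas, which this comparison did not use, the means at 18mo and 3mo were 12 ± 3 and 11 ± 1 (p = 0.8, exact permutation test, n = 3 each). On the 36011 strongest peaks the IOP retinas of both ages held 8 to 10 Hox peaks, and so did the 18mo controls. Of the cell type markers, those of pericytes and fibroblasts ran from 0 to 1 called promoters of 5 per 18mo control library and from 0 to 2 per 3mo control library, and microglial ones were at 0 in all. Their part in the difference was not tested.

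**Figure D5:**
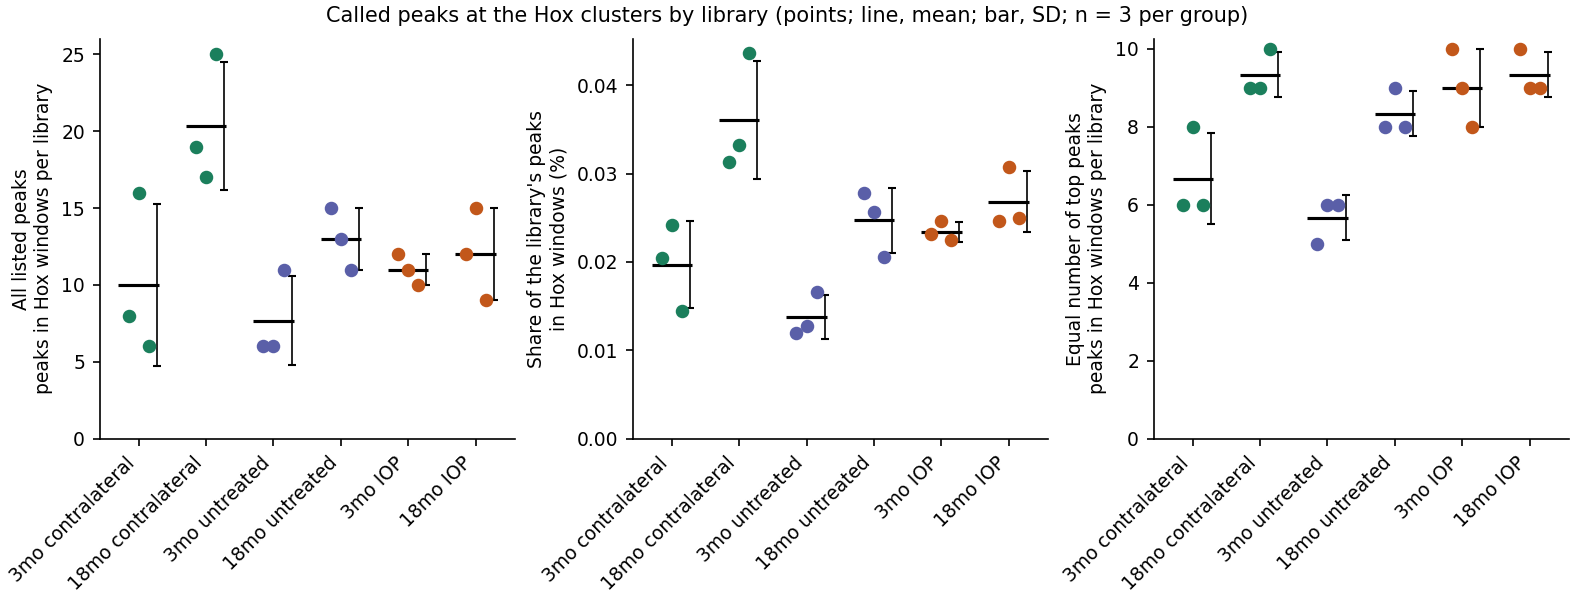
Peaks in the Hox windows per library, by group, as a count of all listed peaks (left), as percent of the peaks of the library (middle) and as a count among the 36011 strongest peaks (right). Points are libraries, lines means and bars SD (n = 3). For all listed peaks 18mo contralateral libraries (17 to 25) are the highest group and on the strongest peaks 3mo controls (5 to 8) lie lowest.

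By cluster, the age difference had its lowest p in Hoxc. Hoxc peaks numbered 1, 3 and 1 in 3mo contralateral and 2, 2 and 2 in 3mo untreated retinas, against 5, 5 and 8 in 18mo contralateral and 4, 4 and 3 in 18mo untreated retinas. The ranges met at 3. The means were 4.83 ± 1.72 and 1.83 ± 0.753 (SD, n = 6 each, difference 3, p = 0.00433, exact permutation test), with an adjusted p of 0.0519 over the 12 comparisons of clusters. Hoxa held 8.5 ± 2.07 peaks at 18mo and 5.67 ± 2.16 at 3mo (adjusted p = 0.353), Hoxd 2.17 ± 0.983 and 0.833 ± 1.17 (adjusted p = 0.353) and Hoxb 1.17 ± 0.753 and 0.5 ± 0.548 (adjusted p = 0.353, exact permutation tests, n = 6 each). All 4 clusters had the higher mean at 18mo on the full lists, and none passed the adjusted threshold of 0.05. On the 36011 strongest peaks the difference was 1 in Hoxc (2.33 against 1.33, adjusted p = 0.353, exact permutation test), 1 in Hoxa (5.17 against 4.17), 0.833 in Hoxd and -0.167 in Hoxb.

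Among single regions, the first coding exon of Hoxc5 was the one Hox region with an unadjusted p under 0.05. Hoxc5 belongs to paralog group 5, which acts in the cervical and brachial spinal cord. The exon was called in 6 of 6 18mo controls and in 1 of 6 3mo controls, 3mo contralateral 2 (Fisher's exact test p = 0.0152, adjusted p = 0.424 over 9868 regions tested). It was also called in all 6 IOP retinas, at both ages. Its percentile in the 18mo controls ran from 5.73 to 44.2, so it stood among the weaker peaks. Of the 4 Hox regions in which the test could fall under an unadjusted p of 0.05, 1 did (25.0%), against 3.19% of regions tested in the genome in the same direction. No region in the genome passed the adjusted threshold in Fisher's exact test, while 315 and 38 had an unadjusted p under 0.05 with more calls at 18mo and at 3mo. Of the 4 Hox regions, 0 were among the latter (background 0.385%). The gene windows of Hoxc4 and Hoxc6 hold the same region and had the same p (adjusted p = 0.511 over 573 genes). These were 2 of 5 Hox windows that could be tested, against 2.79% of the 573 gene windows tested, and 0 of 5 had more calls at 3mo (background 0.175%). No Hox region was called in 6 of 6 18mo and 0 of 6 3mo controls (background 0.0788%) or the reverse (background 0.00544%).

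Counted without a test, 17 Hox regions were called in some but not all of the 12 controls. Of these, 15 were called in more 18mo than 3mo libraries (88.2%, background 48.3%) and 1 in fewer (5.88%, background 28.9%). In contralateral retinas 14 of 15 such regions were called more often at 18mo (background 57.4%) and 1 less often (background 20.7%), and in untreated retinas 9 of 10 (background 38.2%) and 1 less often (background 43.9%). In IOP retinas 4 of 11 were called more often at 18mo and 4 less often (backgrounds 31.6% and 47.9%). The regions of a cluster share libraries and are not independent of each other. The regions in Hoxb6 and the Hoxc9 exon and at the promoters of Hoxc13 and Hoxc5 were called only in 18mo control libraries. They met the rule of at least 2 libraries through these alone, so their direction by age was fixed in advance. The same rule held for the background.

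The second comparison asked how pressure changed the retina at each age. At 3mo, IOP retinas held 12, 11 and 10 Hox peaks and contralateral retinas 8, 16 and 6 (11 ± 1 against 10 ± 5.29, n = 3 each, a difference of 1 with p = 0.9 in the exact permutation test). The contralateral libraries reached both below and above the IOP ones. On the 36011 strongest peaks the means were 9 and 6.67 (difference 2.33, exact permutation p = 0.2). At 18mo, IOP retinas held 12, 15 and 9 and contralateral retinas 19, 17 and 25 (12 ± 3 against 20.3 ± 4.16, difference -8.33). These groups did not overlap, and p was 0.1, the smallest the exact permutation test allows here (adjusted p = 0.25). The whole lists were shorter too, with 44474 ± 7329 peaks in 18mo IOP and 56406 ± 4856 in 18mo contralateral retinas, without overlap. On the 36011 strongest peaks both groups had a mean of 9.33 Hox peaks. As a share of the peaks of a library, Hox peaks made up 0.0268 ± 0.00345% in IOP and 0.0360 ± 0.00664% in contralateral retinas, again without overlap (difference -0.00924 percentage points, exact permutation p = 0.1, n = 3 each). Relative to all protein-coding windows the density was 0.908 ± 0.133 and 1.26 ± 0.227 (exact permutation p = 0.1, n = 3 each). The difference at 18mo therefore depended on how list length was allowed for. Over both ages the difference was -3.67 peaks (p = 0.205, permutation within age, adjusted p = 0.256), and on the strongest peaks it was 1.17 in the opposite direction (adjusted p = 0.333).

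The pressure difference at 18mo minus that at 3mo was -9.33 Hox peaks (permutation p = 0.095, adjusted 0.2375 over the 5 sets of windows), and -2.33 on the 36011 strongest peaks (permutation p = 0.18). As a share of library peaks it was -0.0130 percentage points (permutation p = 0.025, adjusted 0.0625). For Hoxc alone it was -4.33, from 1.33 at 3mo and -3 at 18mo (permutation p = 0.02, adjusted 0.1). On the 36011 strongest peaks it was -0.667, from 1.33 at 3mo and 0.667 at 18mo (permutation p = 0.7), and as a share of library peaks -0.00702 percentage points (permutation p = 0.01, adjusted 0.05). On all listed peaks, Hoxc peaks numbered 3 in each of the 6 IOP retinas, against 1, 3 and 1 in 3mo and 5, 5 and 8 in 18mo contralateral retinas. The Hoxc values of the pressure and age comparisons share the contralateral libraries and are not separate evidence.

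Regions called in 3 of 3 libraries of one group and 0 of 3 of the other were counted without a test. At 18mo, 2 of 22 Hox regions were called in all contralateral and no IOP retinas (9.09%, background 2.23%), and 0 the other way (background 0.239%). Over both directions the count was 0 on the 36011 strongest peaks (background 1.72%). It was 1 when a peak had to cover 50% of the region (background 2.17%). The 2 regions were an exon of Hoxc9 (chr15:102981756-102982107) and the promoter of the antisense gene Hoxd3os1 (chr2:74715836-74716061). The Hoxc9 exon was called in 3 libraries in all, the 18mo contralateral ones, at percentiles of 26.99, 3.77 and 6.15, in the lower part of their lists. It met the rule of at least 2 libraries through these alone, so its direction here was fixed in advance. The same rule held for the background. Hoxd3os1 was called in 6 libraries, at percentiles of 64.0, 11.5 and 45.3 in the 18mo contralateral retinas and elsewhere in 3mo contralateral 2, 3mo IOP 3 and 18mo untreated 4. At 3mo there were 0 such regions in either direction (backgrounds 0.217% and 0.241%). Of 15 Hox regions with mixed calls at 18mo, 12 were called in fewer IOP than contralateral libraries (background 71.0%) and 2 in more (background 14.2%), near the shares of the genome. Among the 12, the regions in Hoxb6, the Hoxc9 exon and the Hoxc5 promoter were called only in 18mo contralateral libraries, so their direction was fixed in advance. At 3mo, 4 of 11 were called in more IOP libraries and 2 in fewer (backgrounds 32.2% and 41.9%). Of the 3 Hox regions that the test of pressure over both ages could reach, 0 had an unadjusted p under 0.05 by the exact test stratified by age (backgrounds 1.62% and 3.43%).

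A further comparison set untreated against contralateral retinas of both ages. Untreated libraries held 10.3 ± 3.67 Hox peaks and contralateral ones 15.2 ± 7.08 (SD, n = 6 each, difference -4.83, exact permutation test, adjusted p = 0.256). Of 17 Hox regions with mixed calls, 14 were called in fewer untreated libraries and 2 in more (backgrounds 52.1% and 32.7%). Among the 14, the regions in Hoxb6, the Hoxc9 exon and the Hoxc5 promoter were called only in 18mo contralateral libraries. These regions met the rule of at least 2 libraries through that group alone, so their direction here was fixed in advance. The same rule held for the background. Of 4 regions that could be tested, 0 had an unadjusted p under 0.05 (backgrounds 5.89% and 5.55%, Fisher's exact test). On the 36011 strongest peaks the difference was -1 (adjusted p = 0.468, exact permutation test), and it ran from -6.67 to -2.87 when libraries were left out in turn (-2.87 without 18mo contralateral 3). The kind of control and the shortest listed peak, which ran from 79 to 89 bp in untreated libraries alone, cannot be told apart.

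The core of the binding motif of CTCF was searched as CCA, AG and GGC in this order, each 2 free bases apart, on both strands in the 200 bases around each summit. It was found in 4 of the 22 Hox regions (18.2%), against 11.3% of 73449 regions on the main chromosomes. A match is a description of the letters and not a measured site. The 4 matches are given with 9 bases on either side and the 12 bases of the motif in capitals, since they lie 19 to 44 bp from the summits and recur in 2 clusters. They lie at chr2:74673169-74673198 (minus strand), chr2:74715912-74715941 (plus strand), chr6:52221800-52221829 (minus strand) and chr6:52240532-52240561 (minus strand) of mm10.
Hoxd13 to Hoxd12: gccaaacgcCCAGGAGATGGCgagcgtgct
Hoxd3os1 promoter: gagctttgtCCAGGAGGAGGCgctgtagga
Hoxa7 region: aagaaaattCCAGGAGATGGCagtgtggct
Hoxa10 exon: tcgcagccgCCACGAGATGGCgcactcccg

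The Hoxd13 to Hoxd12 and Hoxa7 matches are identical in 12 of the 12 bases of the motif and in 18 of 30 overall. A shorter pattern, AGNNGGCGC, was chosen after these sequences had been seen and overlaps the end of the core. It was found in 6 of 22 Hox regions (27.3%) and in 7.66% of all regions. Since the pattern was chosen from sequences of Hox regions, these shares are a description and no test. Hox regions were also richer in GC (median 61.8% against 52.5%) and in CpG (median 15 against 3), whose part was not tested. The 6 were the Hoxc10 promoter, the Hoxc9 exon, the Hoxc9 to Hoxc8 region, the Hoxd3os1 promoter, the Hoxa10 exon and a region in 9530018H14Rik near Hoxa13. The joint Pbx-Hox pattern TGATTNAT was found in 0 of the 22 regions (1.95% of all regions) and a retinoic acid response element of the DR5 type in 0 (0.0408%).

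Other genes of the Hox system were called far more often than the Hox genes. Of 9 cofactor genes of the Pbx, Meis and Pknox families, whose proteins bind DNA with Hox proteins, 9 had a promoter call in all 18 libraries (background 51.8%). Of 16 Polycomb and Trithorax genes, which keep Hox genes silent or active, 15 did, and the promoter of the H3K27 demethylase gene Kdm6b was at 0 with a peak elsewhere in its window in all 18. Of 12 homeobox genes with roles in the retina 9 were called in all 18, and Lhx4, Prox1 and Vsx1 in 17, 13 and 1. Of the 12 genes of Cdx factors and of retinoic acid metabolism and reception, which act upstream of Hox genes, the receptor genes Rara, Rarb and Rarg were called in all 18. In none were 4 called (Cdx2, Cdx4, Cyp26c1 and Aldh1a1). The share of these 12 genes in all 18 lay below the background of 51.8%, and that in none was near the background of 35.8%.

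The relatives of the Hox genes outside the clusters were mostly without a call. Among the ParaHox genes and Evx1 and Evx2, homeobox genes descended from the same ancestral group, Gsx1 was called in 8 libraries and Gsx2, Pdx1, Evx1 and Evx2 in 0 (background 35.8%). Of 10 non-Hox genes next to the clusters, 7 promoters were called in all 18 libraries (background 51.8%). Those of Skap1, Ttll6 and Calcoco2 were called in 0, near the background of 35.8%. Of the 6 microRNA genes inside the clusters, Mir615 had a promoter call in 13 libraries, through the Hoxc5 exon, Mir196b in 2, and Mir10a, Mir10b, Mir196a-1 and Mir196a-2 in 0. The promoters of the noncoding RNA genes Hotairm1, Hottip and Haglr, which lie within or beside the clusters, were at 0. Inside the windows, the region 4616 bp from the start of Hoxd13 was called in 2 libraries. Just outside, 9455 bp from Hoxa13, the nearest further region (chr6:52270335-52270841) was called in 17 libraries.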

How the data were processed

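ATAC-seq libraries of 18 bulk mouse retinas (6 groups of 3) were analysed from the peak lists that the authors deposited. Peaks were called by the authors per library with MACS2 on mm10. The largest q-value listed was 0.0499. The submitters' processing notes also name STAR 2.7.8a, HOMER, edgeR and bedtools 2.29.2. Trimming, duplicate removal, filtering and a transposase shift are not given in the sources used here. Each deposited list gives the position and summit of a peak, a score that the peak caller derived from the q-value, the fold of signal over local background as a ratio, and the −log10 p-value and −log10 q-value. These deposited values belong to a peak and were used only to rank and filter peaks within a list. The count test of the study (edgeR) was not applied, because peak lists hold no read counts, and read depth is unknown.

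Whether a region was called was the measurement. Overlapping peaks (at least 1 bp) were merged into regions, and those called in at least 2 libraries were kept (73567 of 99792). Annotation was GENCODE M21 on the same build. Age was compared over 6 against 6 control libraries and IOP over 3 against 3 at each age. Tests were two-sided exact permutation tests of single values per library, permutation within libraries for pairs of clusters (100000 permutations), and Fisher's exact or stratified exact tests per region on all regions that could pass, with Benjamini-Hochberg adjustment. Scripts were tested on simulated data. Python 3.11.15, numpy 2.4.6, pandas 2.3.3, scipy 1.17.1 and pysam 0.24.0 were used. All 39 genes entered the counts, 1 is not reported here by name, and named with values were genes with a promoter call, genes with the most and fewest calls, regions called in at least 9 libraries, and regions with an unadjusted p under 0.05 or exclusive to a group. Members, gene lists and tests were chosen with earlier results of these data known. Alternatives left out each library, reduced lists to equal length, or changed the windows, thresholds and promoter definition.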

Additional observations from a re-analysis of the deposited data

Results flagged for a closer look

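In 3mo controls, Hoxd held 3 peaks in contralateral 2 and 0 or 1 in the other 5 libraries, a gap of 0.667 of the whole range. This was also the library with the longest list, 66160 peaks. Among IOP retinas, the share of peaks in the Hox windows was highest in 18mo IOP 2 at 0.0308%, with a gap of 0.694 of the range. Combinations of a measure and a group numbering 30 were checked in this way. The cut-offs were those that chance passes in about 1 in 20 cases for normally distributed values. That rate need not hold for small tied counts such as those of Hoxd, and the groups share libraries. The effect of pressure on Hoxc peaks differed between ages by -4.33 peaks, from 1.33 at 3mo to -3 at 18mo (permutation p = 0.02, adjusted 0.1 over 5 sets of windows). On lists of equal length it was -0.667, with 0.667 in place of -3 at 18mo (permutation p = 0.7). As a share of library peaks it was -0.00702 percentage points (permutation p = 0.01, adjusted 0.05).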

How the results depend on the processing

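Leaving out each library in turn moved the age difference in Hox peaks between 6.17 and 9.27 (9.27 without 3mo contralateral 2, adjusted p = 0.0325, exact permutation test), that of IOP over both ages between -5.07 and -2.11, IOP at 3mo between -1 (without 3mo contralateral 3) and 4, and IOP at 18mo between -10 and -6. Age passed the adjusted threshold on equal list length (2.67) and as a share (0.0136 percentage points), and IOP over both ages changed sign on equal length (1.17). The age difference in Hoxb changed sign on equal length (-0.167). Hoxb minus Hoxd did not pass with a −log10 q of at least 2 (-0.429, permutation p = 0.0786), on equal length (-0.112, p = 0.549), on gene bodies alone (-0.545, p = 0.111) or by percent of window covered (-0.0628, p = 0.118). Hox regions with an age difference fell from 1 to 0 on equal length and when a peak had to cover 50% of the region. Over all regions tested the share went from 3.58% to 4.76% and 2.23%. Hox regions exclusive to IOP or contralateral retinas at 18mo fell to 0 and 1 under these settings (background 2.47% at first, then 1.72% and 2.17%). With libraries left out they were 2 to 4 (4 without 18mo contralateral 2, background 5.54%). Those at 3mo were 0 to 2 (2 without 3mo contralateral 2, background 2.01%). Those exclusive to an age were 0 to 1 (1 without 3mo contralateral 2, background 0.170%). Hox genes with a promoter call rose from 7 to 15 at 2.5 kb on either side and fell to 3 on equal length. Over all protein-coding genes the share went from 64.2% to 69.6% and 60.6%. Hox gene windows with an age difference fell from 2 to 0 on gene bodies alone and on equal length. Over all gene windows tested the share went from 2.97% to 1.97% and 4.98%. Causes beyond fewer peaks, wider windows or fewer libraries were not tested. For Hoxc by age, 20 of 22 alternatives kept the side of the threshold. The difference fell from 3 to 1 on equal length (adjusted p = 0.353), and it passed as a share (0.00535 percentage points, adjusted p = 0.0260) and without 18mo untreated 6 (3.37, adjusted p = 0.0260, exact permutation tests). Whether replicate numbers pair libraries is not stated. Deviations of same-numbered libraries correlated at -0.176 to 0.0974 and those of other-numbered ones at -0.152 to 0.144. With 3 libraries per group these values cannot decide it, and libraries were not treated as pairs. With the replicate number as a block the age difference was 7.83 (exact sign-flip p = 0.0625, adjusted 0.25). No contrast had passed the adjusted threshold on the full lists, and so few pairs could not bring one under it, so this setting could not change a call. Chosen after seeing the data were the every-TSS setting, the shortest-peak classes, the age comparison in IOP retinas, the differences between effects, the alternatives for single clusters, the region test of the kind of control and the counts of regions by direction. Peak lists give no depth, so weak open sites may be missing from any library.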
